A study of Gallus gallus and Dromaius novaehollandiae and Alligator mississippiensis with 60 samples.

Results

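The epidermis of the alligator embryo was compared between 2 body sites whose scales differ in shape. The femoral site on the thigh bears scales that the labels call asymmetric, and the flank bears scales that they call symmetric. There were 8 libraries, chosen by their labels from the 60 of the series, with 2 libraries in each of 4 groups. These were femoral scale at morphogenesis (Ferguson stage 23/24), flank scale at morphogenesis (stage 23), femoral scale at placode (stage 21) and flank scale at placode (stage 22). The labels name no treatment, mutation, strain, age in days or sex for any of these groups. Skin had been kept in 10 mg/mL dispase, an enzyme that loosens epidermis from dermis, for 13 h at 4 °C before the epidermis was taken. A further 4 alligator libraries from the foot claw, labelled stage 22 at morphogenesis and stage 21 at placode, stood outside the comparison. The series' design text speaks of dorsal scales in alligator where the sample labels speak of flank. The title of the series concerns a scale programme divided between feathers and bird scutate scales. The question addressed here is which alligator genes differ between femoral and flank scale at the earlier stage and which only later. Every asymmetric library is femoral and every symmetric one is flank, so scale shape and body site cannot be told apart.

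Scales begin, like feathers and hairs, as placodes, which are local thickenings of the epidermis that exchange signals with the dermis beneath them. In the morphogenesis stage that follows, the raised scale takes its shape and its epidermal cells start to differentiate towards cornification. In crocodilians and birds the hardened layers are built from keratins and from corneous beta-proteins. An asymmetric scale has an outer and an inner face and points in one direction, whereas a symmetric scale has no such polarity. Ferguson stages are a numbered series of crocodilian embryo stages defined by external anatomy.

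Stage names and Ferguson stages did not match between the sites, which touches every result below. The femoral libraries lay 2.5 Ferguson stages apart, taking 23/24 as midway, and the flank libraries 1 stage apart. All femoral libraries came from sequencing lane 3 and all flank libraries from lane 7, as read from the library names, so lane and site cannot be told apart. The values are TPM, a transcript abundance per gene length and per library total, and they keep no read depth, so no counting interval could be given. Between 7197 and 7349 genes reached 1 TPM in a library, and the 10 most abundant genes together made up 12.1% to 15.7% of each total. Replicates correlated across genes at 0.987 to 0.996 on log2(TPM + 1), with the lowest value between the femoral placode libraries. Flank libraries of different stages correlated at 0.982 to 0.989, a range that takes in that lowest value. The design text calls the replicates biological and every library has a specimen number of its own, but nothing further is stated on the embryos behind them, and the p-values rest on the spread among these libraries. The genes carry chicken Ensembl identifiers, for which the reference used here held no symbol, so named genes appear as identifiers and no role is given to them. For the same reason the epidermis label was not checked against marker genes, only against genes that part the layers in chicken.

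Stage and site were the leading directions of variation over the 7531 genes tested. The first principal component held 67.6% of the variance and parted morphogenesis from placode, with the groups in the order of the labelled Ferguson stage. Its scores were −24.9 and −30.1 in femoral placode, −11 and −15.7 in flank placode, 9.3 and 1.6 in flank morphogenesis, and 36 and 34.8 in femoral morphogenesis. The second component held 13.5% and parted the sites. Its scores were 6.7 to 14.7 in the 4 femoral libraries and −9.1 to −11 in the 4 flank libraries. The sites did not overlap on this component, and neither did the lanes, which follow the sites.

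**Figure D1:**
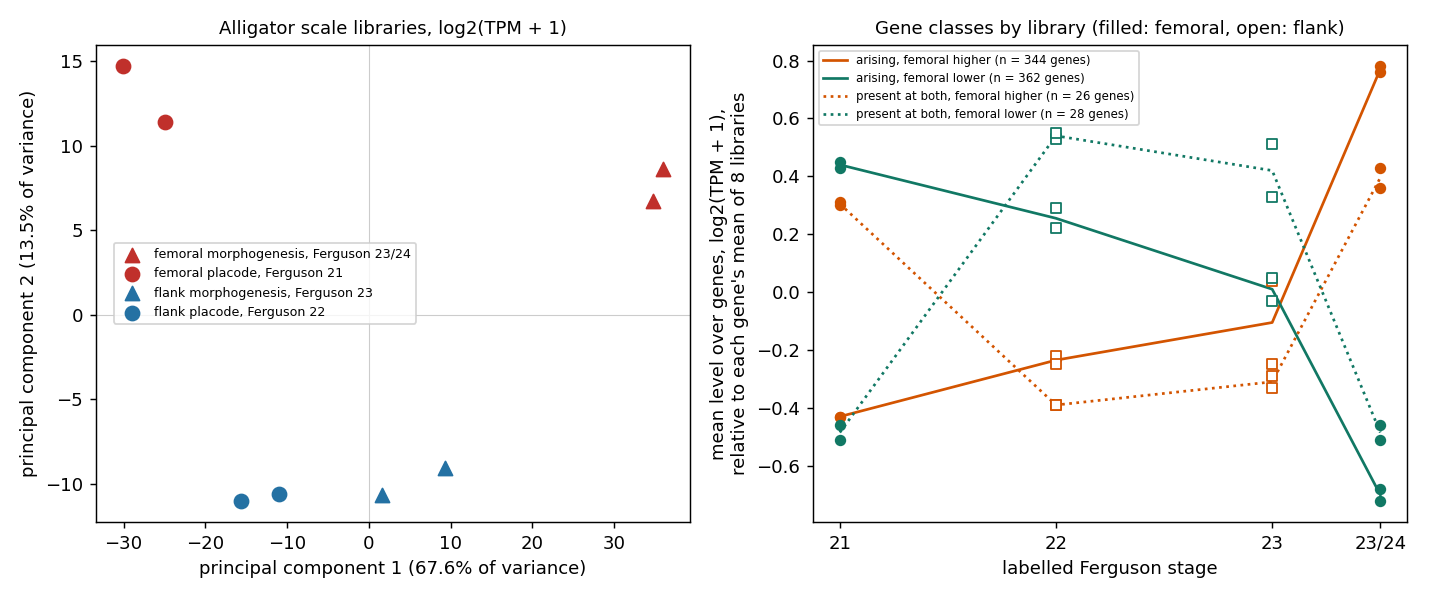
Left: scores of the 8 libraries on the first 2 principal components of log2(TPM + 1), with 1 point per library, coloured by site and shaped by stage name. Right: mean level of 4 gene classes in each library against the labelled Ferguson stage, relative to each gene's mean over 8 libraries, with filled points for femoral and open squares for flank libraries and lines through group means. The group means of the classes called arising lie in the order of the labelled stage. In the higher of these, flank libraries overlap between stages, at −0.25 in flank morphogenesis replicate 2 against −0.22 and −0.25 in flank placode. The classes called present at both separate the sites under both stage names, as their calls require. The Ferguson labels of the sites differ under each stage name, although the femoral label 23/24 takes in the flank label 23.

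At morphogenesis 1266 genes differed between femoral and flank scale, which is 16.8% of those tested (limma, Benjamini-Hochberg adjusted p under 0.05). Femoral scale was higher for 636 genes (8.45%) and lower for 630 (8.37%). The differences were of moderate size, with a median of 0.612 on the log2(TPM + 1) scale among the called genes, and 216 of them reached 2-fold, 94 of these lower and the others higher. The count was 448 without femoral morphogenesis replicate 1, 544 without femoral morphogenesis replicate 2 and 283 without flank morphogenesis replicate 2. Without flank morphogenesis replicate 1 it was 1129, but the even split was lost, with 752 higher and 377 lower.

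The identifiers named are those with the largest called difference each way among genes whose libraries did not overlap between the sites. All genes called at morphogenesis met this condition, as did 62.1% of all genes tested. ENSGALG00000012420 had 1190 and 1210 TPM in femoral scale at morphogenesis, against 107 and 47.2 TPM in flank scale. Both femoral libraries lay far above both flank libraries, and the difference was 4.06 on the log2(TPM + 1) scale (SE 0.47, limma adjusted p = 0.006). It lost its call without femoral morphogenesis replicate 1, where the difference was 4.07 at a limma adjusted p of 0.054. ENSGALG00000003843 had 1210 and 1090 TPM in femoral scale, against 147 and 54.4 TPM in flank scale. It was 3.67 higher (SE 0.48, limma adjusted p = 0.0083), and the limma adjusted p was 0.068 without femoral morphogenesis replicate 1 and 0.06 without replicate 2. Both were among the abundant transcripts of the late femoral epidermis.

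ENSGALG00000007219 was the gene furthest below flank. It had 1.99 and 1.18 TPM in femoral scale at morphogenesis, against 25.6 and 25.5 TPM in flank scale. The difference was −3.38 (SE 0.15, limma adjusted p = 1.3e-05), and the flank libraries were nearly equal. ENSGALG00000013663 had 0.627 and 0.884 TPM in femoral scale, against 10.4 and 24.4 TPM in flank scale. Its difference was −3.28 (SE 0.37, limma adjusted p = 0.0037), although the flank libraries lay well apart from each other.

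At placode 550 genes were called, which is 7.3% of those tested. Femoral scale was higher for 379 (5.03%) and lower for 171 (2.27%), and 100 of the called genes reached 2-fold, 48 higher and 52 lower. The excess of higher calls depended on the scaling of the libraries. Higher calls made up 68.9% of all calls with the values as deposited, 49.1% after median-of-ratios rescaling and 47.1% after quantile normalization. Lower calls numbered 253 and 277 in those fits, and higher calls 244 and 247. The count itself rested on both flank placode libraries, which had the closest replicates: it was 28 without flank placode replicate 1 and 48 without flank placode replicate 2.

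ENSGALG00000005499 was the gene furthest above flank at placode, with 10.9 and 6.91 TPM in femoral scale, against 0.985 and 0.959 TPM in flank scale. The difference was 2.3 (SE 0.24, limma adjusted p = 0.0028). At morphogenesis it had 0.391 and 0.844 TPM in femoral scale, against 0.479 and 0.859 TPM in flank scale, and the site ranges overlapped (difference −0.05, 95% interval −0.59 to 0.49). ENSGALG00000005400 had 8.14 and 3.29 TPM in femoral scale at placode, against 0.674 and 0.964 TPM in flank scale. Its difference of 1.79 (SE 0.33, limma adjusted p = 0.02) was no longer called without flank placode replicate 1 (adjusted p = 0.15) or replicate 2 (adjusted p = 0.11).

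In the other direction at placode, ENSGALG00000003843 had 5.22 and 3.46 TPM in femoral scale, against 45.1 and 32.1 TPM in flank scale. This transcript, second on the femoral side at morphogenesis, was thus lower there at placode, by −2.89 (SE 0.48, limma adjusted p = 0.029). This placode call was lost in 6 of the 8 fits that left out 1 library, at limma adjusted p-values of 0.052 to 0.19. ENSGALG00000015937 had 3.93 and 4.53 TPM in femoral scale at placode, against 40.6 and 28.4 TPM in flank scale (difference −2.74, SE 0.25, limma adjusted p = 0.0048). At morphogenesis it had 98.4 and 135 TPM in femoral scale, against 44.1 and 29.1 TPM in flank scale (difference 1.66, SE 0.25, limma adjusted p = 0.0078). The flank levels of this gene overlapped between the stages, and the femoral level lay above them at morphogenesis and below them at placode.

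The site-by-stage term tests whether the site difference itself differed between the stages. It is the femoral minus flank difference at morphogenesis minus that at placode. The term was called for 1374 genes, or 18.2% of those tested, with 544 positive (7.22%) and 830 negative (11%). Of these, 315 were called at neither stage alone. Positive terms made up 39.6% of the calls with the values as deposited, 53.1% after median-of-ratios rescaling and 50.5% after quantile normalization. They made up 53.6% without flank morphogenesis replicate 1. The count was 706 without femoral morphogenesis replicate 1, 759 without femoral morphogenesis replicate 2, 606 without flank morphogenesis replicate 2, 380 without flank placode replicate 1 and 579 without flank placode replicate 2.

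Genes were sorted by these calls, and a difference was called arising at morphogenesis where the term and the morphogenesis difference were both called with the same sign and the placode difference was not. This class held 706 genes, or 9.37% of those tested, with 344 higher and 362 lower in femoral scale. Their median absolute difference was 0.66 at morphogenesis and 0.194 at placode. With sign, the median was 0.73 at morphogenesis and −0.18 at placode for the genes higher, and −0.59 and 0.18 for those lower. A placode difference that was not called is not thereby absent. A further 403 genes were called at morphogenesis alone without a called term, so a difference confined to morphogenesis was not shown for them. At placode, 252 genes (3.35%) had a called difference that the term showed to be smaller, gone or turned at morphogenesis, with 63 lower and the others higher in femoral scale at placode. Opposite calls at the stages were made for 100 genes (1.33%), of which 38 were higher and 62 lower in femoral scale at morphogenesis. Calls of the same sign at both stages with no called term were made for 54 genes (0.717%), with 26 higher and 28 lower in femoral scale.

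The class sizes depended on single libraries. The class arising at morphogenesis held 281 genes without femoral morphogenesis replicate 1, 315 without femoral morphogenesis replicate 2, 155 without flank morphogenesis replicate 2, 277 without flank placode replicate 1 and 377 without flank placode replicate 2. The class smaller or gone at morphogenesis held 20 and 34 genes without flank placode replicates 1 and 2, and the opposite class held 2 and 8. The opposite class held 34 and 41 genes without femoral morphogenesis replicates 1 and 2, 39 without flank morphogenesis replicate 2 and 184 without femoral placode replicate 1. The class present at both stages held 4 and 6 genes without flank placode replicates 1 and 2, 20 and 30 without femoral morphogenesis replicates 1 and 2, 30 and 18 without flank morphogenesis replicates 1 and 2, and 82 without femoral placode replicate 1.

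**Figure D2:**
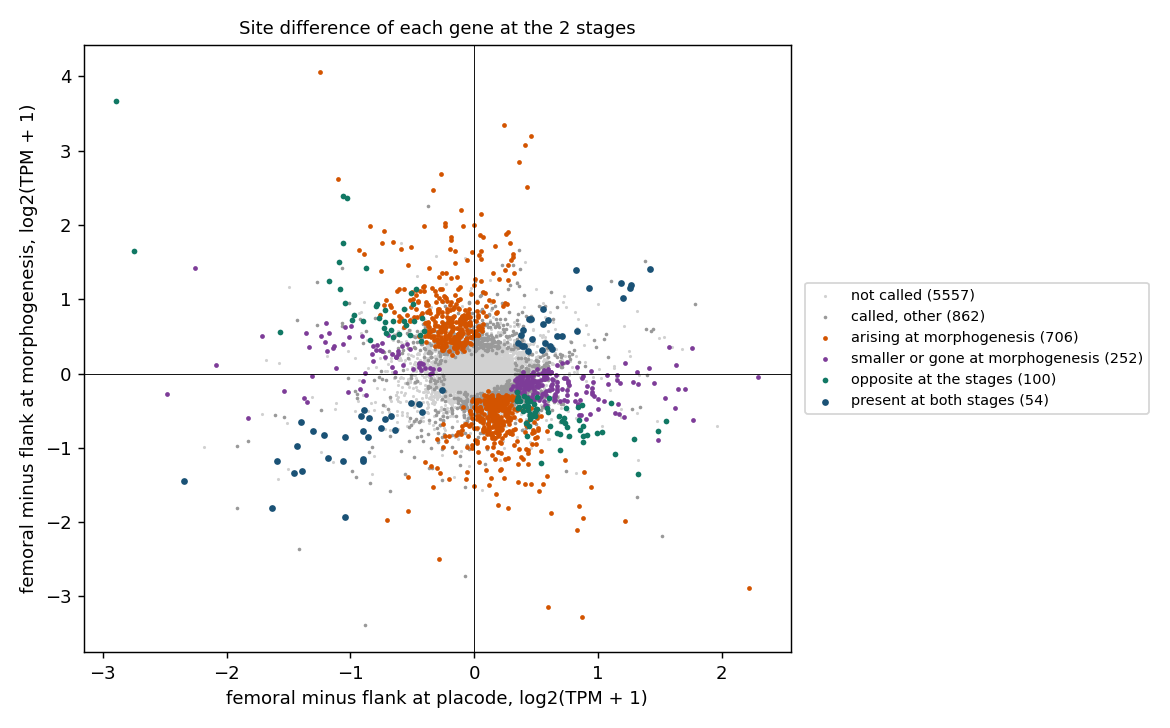
Each point is 1 of 7531 genes, with the femoral minus flank difference at placode on the horizontal axis and at morphogenesis on the vertical axis, both on the log2(TPM + 1) scale. Coloured points are the classes by call, and the 54 genes present at both stages lie at the lower left and upper right. The 706 genes arising at morphogenesis had a median absolute placode difference of 0.194, but their placode differences ranged from −1.25 to 2.22.

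ENSGALG00000003843 and ENSGALG00000012420 had the largest positive terms. For ENSGALG00000003843 the term was 6.56 (SE 0.68, limma adjusted p = 0.0054), since its femoral difference between morphogenesis and placode was 7.77 (SE 0.48) and its flank difference 1.21 (SE 0.48). For ENSGALG00000012420 the term was 5.3 (SE 0.66, limma adjusted p = 0.0082), and its placode levels were 16 and 7.38 TPM in femoral scale, against 26.5 and 28.2 TPM in flank scale. In both genes the 2 flank groups lay between the 2 femoral groups.

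ENSGALG00000013587 had the most negative term. It had 31 and 21.3 TPM in femoral scale at morphogenesis, against 143 and 272 TPM in flank scale. At placode it had 1410 and 3240 TPM in femoral scale, against 410 and 510 TPM in flank scale. Its term was −5.12 (SE 0.7, limma adjusted p = 0.01), and without flank placode replicate 1 the limma adjusted p was 0.054. The placode difference alone, 2.22, missed the threshold (limma adjusted p = 0.058). ENSGALG00000013663 followed with a term of −4.15 (SE 0.52, limma adjusted p = 0.0061), and its placode levels were 47.5 and 41.5 TPM in femoral scale, against 19.8 and 28.6 TPM in flank scale.

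Many of these differences lay in the order of the labelled stage. From stage 21 through 22 and 23 to 23/24, the group means increased at every step for 171 of the 344 genes arising higher in femoral scale (49.7%), against 8.25% of all genes tested. They decreased at every step for 280 of the 362 arising lower (77.3%), against 24% of all genes. The calls that made these classes fix part of this order, since they set the femoral groups apart at the later stage, and no test was made of it. Within femoral scale, 3980 genes differed between morphogenesis and placode (52.8%), with 1182 higher (15.7%) and 2798 lower (37.2%) at morphogenesis. Within flank scale 505 did (6.71%), with 129 higher (1.71%) and 376 lower (4.99%) at morphogenesis. The median stage difference over all genes tested was −0.17 in femoral and −0.11 in flank scale. Neither the directions of these calls nor the order of the group means was read again after rescaling. Of the 344 genes arising higher in femoral scale, 327 were called higher with stage within femoral scale and 22 within flank scale. Of the 362 arising lower, 361 were called lower with stage within femoral scale and 42 within flank scale. The site-by-stage term is also the femoral stage difference minus the flank one, in the same 8 libraries. The calls that made these classes thus largely fix these counts too, and they are not separate evidence.

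When the change was instead expressed per labelled Ferguson stage at each site, a fit added after the data were seen, the femoral and flank rates differed for 0 genes in limma (smallest adjusted p 0.17). At an unadjusted p under 0.05 there were 1158 such genes, against 2606 for the site-by-stage term. The median SE was 0.129 per stage for the rates and 0.17 for the term, which is a total difference, so these are in unlike units. In the rates the femoral change is divided by its span of 2.5 stages, while the flank span is 1 stage. A change confined to femoral scale is thus smaller against its SE than in the term, and 0 calls do not show equal rates. This fit also takes change as linear over stages. The labels do not hold the same pair of stages at both sites, so a site-by-stage difference and the longer femoral span of stages cannot be told apart here. With both sites read at one labelled stage by linear interpolation, the femoral minus flank difference was called for 1033 genes (13.7%), with 574 higher and 459 lower.

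**Figure D3:**
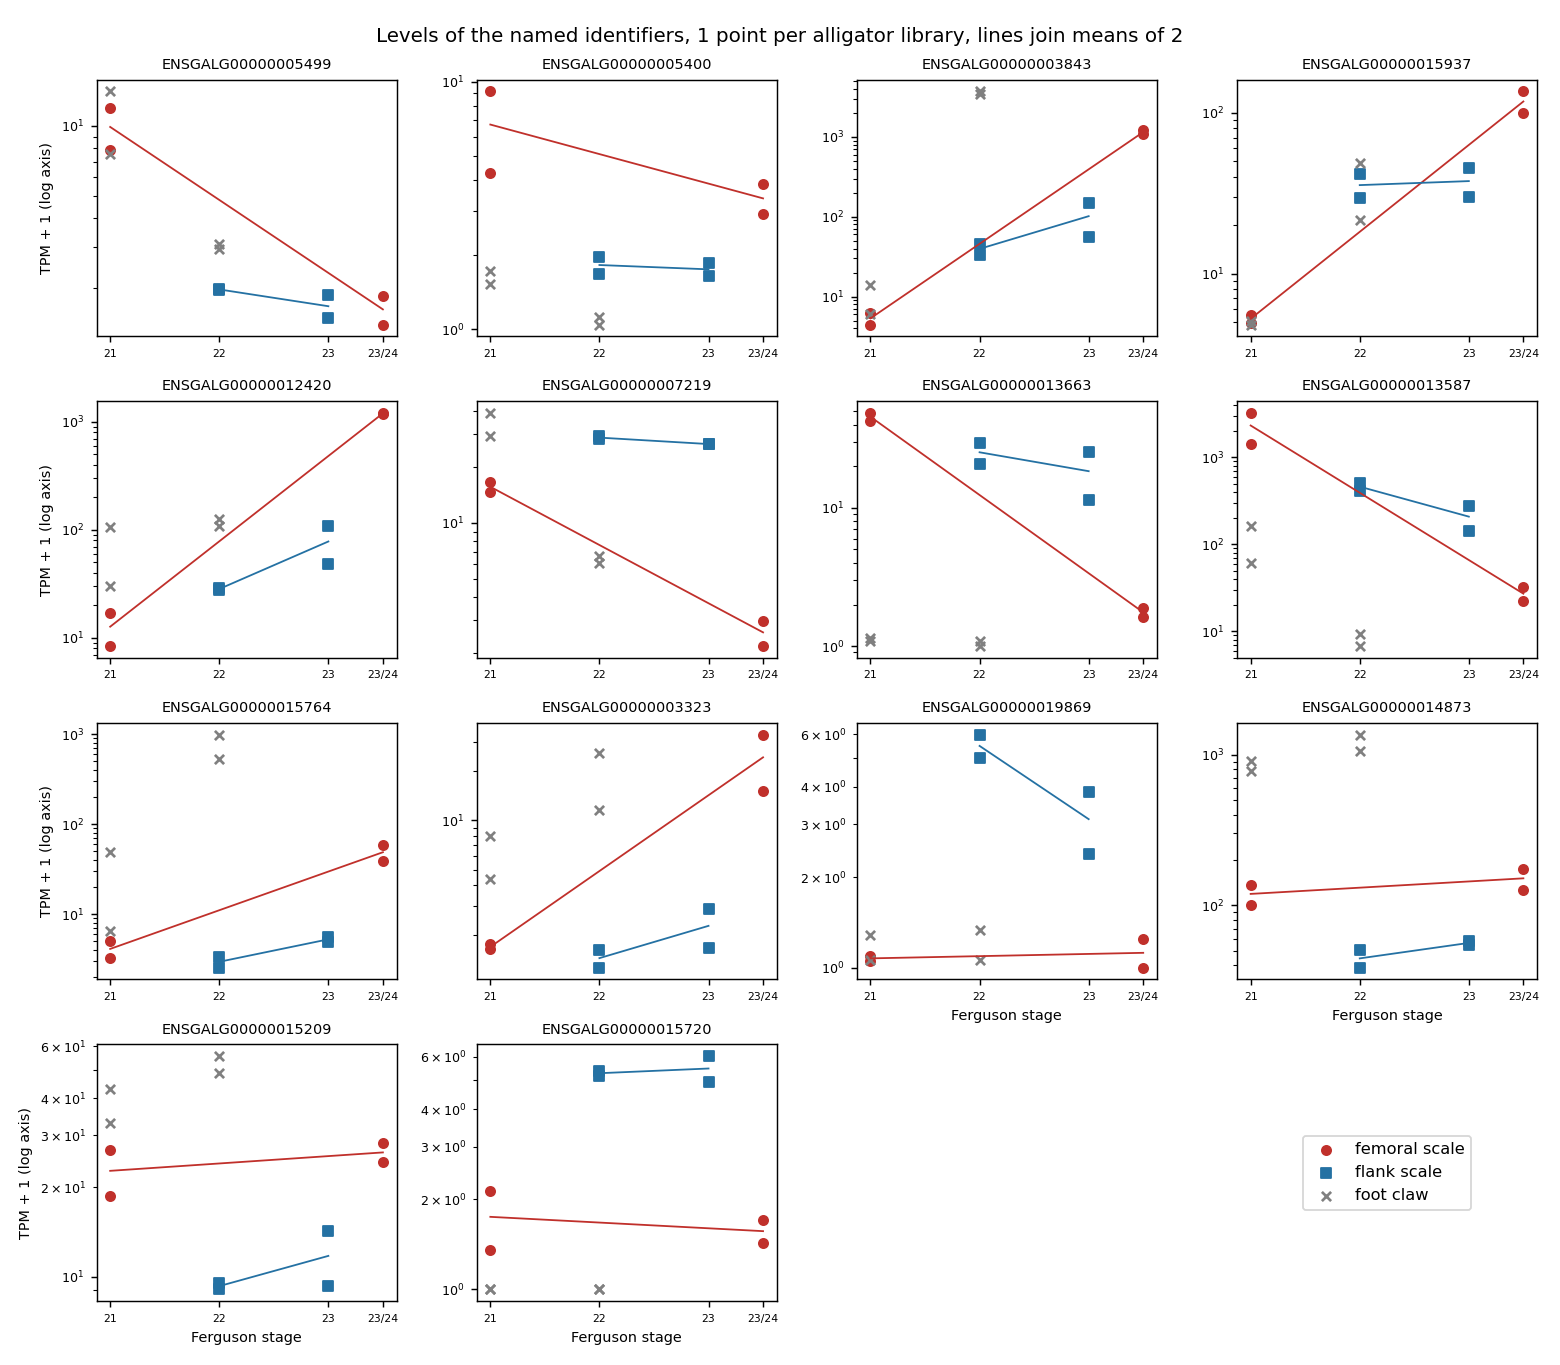
Levels of the 14 named identifiers in the alligator libraries as TPM + 1 on a log axis against the labelled Ferguson stage, with red circles for femoral scale, blue squares for flank scale and grey crosses for foot claw. Lines join the means of 2 libraries. For ENSGALG00000003843, ENSGALG00000012420, ENSGALG00000013587 and ENSGALG00000013663 the flank line lies between the ends of the femoral line, while for ENSGALG00000014873, ENSGALG00000015209, ENSGALG00000015720 and ENSGALG00000019869 the lines of the sites stay apart.

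Averaged over both stages, femoral and flank scale differed for 588 genes (7.81%), with 349 higher (4.63%) and 239 lower (3.17%) in femoral scale. Higher calls were 59.4% of the calls as deposited and 45.3% after quantile normalization, which made 324 higher and 392 lower calls. Among the called genes, all 4 femoral libraries lay above all 4 flank libraries for 118 and below them for 79. Such separation either way was seen in 5.01% of all genes tested. The 588 calls were made on the same 8 libraries, so a larger share of such separation among them was largely set in advance. The count was 234 and 303 without femoral morphogenesis replicates 1 and 2, 919 without femoral placode replicate 1, 173 without flank morphogenesis replicate 2, and 145 and 99 without flank placode replicates 1 and 2. Of the 588, 560 were also called with the same sign when the sites were read at one labelled stage. The mean labelled stage was 22.25 for femoral and 22.5 for flank scale, so that reading weights the same 8 libraries almost as the average does. The overlap was therefore largely set in advance and is not a separate check.

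ENSGALG00000015764 and ENSGALG00000003323 had the largest averages above flank, and both arose at morphogenesis. ENSGALG00000015764 is among the genes at least 4-fold higher in chicken dermis than epidermis, and the part of the dermis in its difference was not tested. It is also among the genes higher in chicken claw than in feather and scutate epidermis. It further belongs to those higher at morphogenesis than at placode in chicken foot scale epidermis. ENSGALG00000015764 had 57.2 and 38.5 TPM in femoral scale at morphogenesis, against 4.58 and 3.93 TPM in flank scale. At placode it had 3.99 and 2.23 TPM in femoral scale, against 1.54 and 2.37 TPM in flank scale, where the site ranges overlapped. Its average difference was 1.82 (SE 0.18, limma adjusted p = 0.0026), and in a fit with the claw libraries the limma adjusted p was 0.12. In the foot claw it reached 529 and 993 TPM at morphogenesis and 48 and 5.48 TPM at placode.

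ENSGALG00000003323 had 32.1 and 14 TPM in femoral scale at morphogenesis, against 1.87 and 0.673 TPM in flank scale. At placode it stayed under 1 TPM in every library of both sites. Its average difference was 1.79 (SE 0.28, limma adjusted p = 0.014), with limma adjusted p-values of 0.052 and 0.075 without flank placode replicates 1 and 2. On the lower side the average was led by ENSGALG00000007219 (−2.13, SE 0.11, limma adjusted p = 3.7e-05) and ENSGALG00000019869 (−1.9, SE 0.18, limma adjusted p = 0.0017). ENSGALG00000007219 had 15.7 and 13.6 TPM in femoral scale at placode, against 28.3 and 27.2 TPM in flank scale, so it was already lower there, by −0.88 (SE 0.15, limma adjusted p = 0.014), and lower still at morphogenesis.

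A site difference of one sign at both stages, with no called term, was called for 54 genes. With or without a called term, same-sign calls numbered 57, against 100 of opposite sign. Of the 379 genes called higher at placode, 26 were called higher at morphogenesis, a smaller share than the 8.45% over all genes tested. Of the 171 called lower at placode, 31 were called lower at morphogenesis, a larger share than the 8.37% over all genes. The class requires both calls and no called term, which by itself favours similar medians at the stages. For the 26 genes higher in femoral scale the median difference was 0.58 at morphogenesis and 0.59 at placode, and for the 28 lower genes it was −0.8 and −0.91. The members named here were chosen after their values were seen, as those with the largest average difference each way in the class. ENSGALG00000014873 averaged 149.8 ± 33.6 TPM in femoral scale at morphogenesis and 55.3 ± 2.36 TPM in flank scale (SD, n = 2 each). At placode it averaged 118.4 ± 25.5 TPM in femoral scale and 43.4 ± 8.30 TPM in flank scale (SD, n = 2 each). The sites did not overlap at either stage, and the differences were 1.4 at morphogenesis and 1.42 at placode (SE 0.21 each, limma adjusted p = 0.006 and 0.014). Every gene called at a stage was free of overlap there, as were 62.1% of all genes tested at morphogenesis and 57.9% at placode. ENSGALG00000015209 had 23.3 and 27.2 TPM in femoral scale at morphogenesis, against 13.2 and 8.29 TPM in flank scale, and 17.7 and 25.8 TPM in femoral scale at placode, against 8.06 and 8.51 TPM in flank scale. Here too every femoral library lay above every flank library.

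The lower members were low in femoral scale at both stages. Of the 28 lower genes, 6 (21.4%) are at least 4-fold higher in chicken dermis than epidermis, ENSGALG00000015720 among them, against 5.79% of all genes tested. The part of the dermis in this class was not tested. ENSGALG00000015720 had 0.707 and 0.423 TPM in femoral scale at morphogenesis, against 5.03 and 3.93 TPM in flank scale. At placode it had 1.14 and 0.355 TPM in femoral scale, against 4.18 and 4.39 TPM in flank scale. The differences were −1.81 and −1.64 (SE 0.23 each, limma adjusted p = 0.002 and 0.0068). ENSGALG00000019869 was listed at 0 and 0.242 TPM in femoral scale at morphogenesis, against 2.86 and 1.39 TPM in flank scale, and at 0.0978 and 0.0508 TPM in femoral scale at placode, against 4.98 and 3.98 TPM in flank scale.

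The foot claw, an appendage whose libraries entered none of these calls, gave a further reading of the class. Its labelled stage was that of femoral scale at placode, and earlier than that of either scale at morphogenesis. ENSGALG00000014873 had 1060 and 1360 TPM in claw at morphogenesis and 904 and 782 TPM at placode, above every scale library. ENSGALG00000015209 was likewise higher in claw than in either scale, at 54.5 and 47.5 TPM at morphogenesis and 31.9 and 42.1 TPM at placode. ENSGALG00000015720 was listed at 0 in all 4 claw libraries. Over the class, the mean claw level lay on the femoral side of the midpoint between the site means for 19 of the 26 genes higher in femoral scale (73.1%) and for 22 of the 28 lower genes (78.6%), against 60.4% of all genes tested. Among the genes called on average over both stages, the shares were 65.9% of the 349 higher and 75.3% of the 239 lower. The reading was thus not particular to the class. The claw libraries came from lanes 1 and 2.

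Lists of genes by symbol could not be applied, so genes were grouped by their behaviour in the chicken libraries of the series, where the same identifiers were measured. These groups were chosen after the data were seen, and they are given as counts with no test of the group. Over all genes tested, 8.45% were called higher and 8.37% lower in femoral scale at morphogenesis, 5.03% higher and 2.27% lower at placode, and 7.22% positive and 11% negative for the site-by-stage term. The chicken libraries are labelled Hamburger-Hamilton stage 40 at morphogenesis and 37 at placode for scutate scale, 40 and 39 for reticulate scale, 38 and 36 for claw, and 36 and 33/34 for feathers, and the emu libraries carry the same stages. Layer groups came first, because they bear on the dissection. Genes at least 4-fold higher in chicken dermis than epidermis (436 tested) were called lower in femoral scale at morphogenesis for 66 genes (15.1%) and higher for 30 (6.88%). Their summed level was 7766 and 8387 TPM in femoral scale at morphogenesis, against 9611 and 9926 TPM in flank scale. At placode it was 14257 and 19132 TPM in femoral scale, against 10820 and 12334 TPM in flank scale, with 21 called higher and 21 lower (4.82% each, so the lower share stood above that over all genes). These became 2 higher and 2 lower without flank placode replicate 1, and 3 and 1 without replicate 2. The summed level lay below flank at morphogenesis and above it at placode, but the mean log2(TPM + 1) over the same genes did not follow it at placode, at 3.07 and 3.12 in femoral scale, against 3.07 and 3.16 in flank scale. At morphogenesis that mean was 2.83 and 2.94 in femoral scale, against 3.05 and 2.98 in flank scale. In bulk tissue, fewer cells of a type and less RNA per cell cannot be told apart. The 66 lower calls became 28 and 36 without femoral morphogenesis replicates 1 and 2 and 21 without flank morphogenesis replicate 2. With these genes left out, 1202 genes were called at morphogenesis, 548 at placode and 1342 for the site-by-stage term.

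Genes at least 4-fold higher in chicken epidermis than dermis (236 tested) were called higher in femoral scale at morphogenesis for 60 genes (25.4%) and lower for 18 (7.63%). Their summed level was 38993 and 40653 TPM in femoral scale at morphogenesis, against 32149 and 29679 TPM in flank scale, and 27325 and 25341 TPM in femoral scale at placode, against 27919 and 26223 TPM in flank scale. The sites parted at morphogenesis and overlapped at placode, where 17 genes were called higher (7.2%) and 20 lower (8.47%). The placode calls became 1 higher and 0 lower without flank placode replicate 1, and 0 and 0 without replicate 2. The 60 higher calls at morphogenesis became 24 and 29 without femoral morphogenesis replicates 1 and 2 and 16 without flank morphogenesis replicate 2, with 7, 13 and 7 lower calls in the same fits. ENSGALG00000003843 is a member. Of the 38 genes with opposite calls that were higher in femoral scale at morphogenesis, 10 belonged to this group (26.3%), which holds 3.13% of all genes tested.

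Genes that are higher or lower at the later stage in chicken made up further groups. Of 213 genes at least 2-fold higher at morphogenesis than at placode in chicken scutate and reticulate foot scales, 64 (30%) were called higher and 8 (3.76%) lower in femoral scale at morphogenesis, with a median difference of 0.37. At placode 8 were called higher (3.76%) and 20 lower (9.39%), with a median of −0.11, and the lower calls became 2 and 3 without flank placode replicates 1 and 2. The site-by-stage term was called positive for 65 (30.5%) and negative for 8 (3.76%), and the positive calls became 33 without flank placode replicate 1 and 43 without flank morphogenesis replicate 2. The 64 higher calls became 29 and 35 without femoral morphogenesis replicates 1 and 2 and 24 without flank morphogenesis replicate 2, beside 3, 7 and 5 lower calls. Of 294 genes at least 2-fold lower at morphogenesis in those chicken scales, 28 were called higher (9.52%) and 51 lower (17.3%) in femoral scale at alligator morphogenesis, where the lower calls became 22 and 29 without femoral morphogenesis replicates 1 and 2 and 17 without flank morphogenesis replicate 2. At placode 38 were called higher (12.9%) and 9 lower (3.06%), and the higher calls became 4 and 10 without flank placode replicates 1 and 2. Of 214 genes higher with stage in chicken feather epidermis, 47 were called higher (22%) and 21 lower (9.81%) in femoral scale at morphogenesis, the lower share being near that over all genes. The higher calls became 20 and 19 without femoral morphogenesis replicates 1 and 2 and 16 without flank morphogenesis replicate 2. ENSGALG00000012420 belonged to both rising groups, and ENSGALG00000013663 to both falling groups. In chicken scutate epidermis the mean of ENSGALG00000012420 was 4.33 higher at morphogenesis than at placode on the log2(TPM + 1) scale (n = 2 each). ENSGALG00000013663 averaged 0.273 ± 0.387 TPM at morphogenesis and 51.7 ± 29.1 TPM at placode in the same epidermis (SD, n = 2 each).

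Genes that set chicken claw apart were read in the same way. Of 399 genes at least 2-fold higher in chicken claw than in feather and scutate epidermis, 95 (23.8%) were called higher and 19 (4.76%) lower in femoral scale at morphogenesis, while at placode 17 were called higher (4.26%) and 24 lower (6.02%), which became 4 and 1 without flank placode replicate 1 and 3 and 2 without replicate 2. Of 1024 genes lower in chicken claw, 82 (8.01%) were called higher and 210 (20.5%) lower in femoral scale at morphogenesis. Without flank morphogenesis replicate 2, the library on which these counts turned most, the claw-high group had 30 higher and 11 lower calls and the claw-low group 19 higher and 60 lower. Without femoral morphogenesis replicates 1 and 2 the claw-high group had 48 and 47 higher calls, and the claw-low group 85 and 102 lower ones. The groups overlap, and ENSGALG00000003843 belongs to the claw-high, the rising and the epidermal groups together. Genes that part the scutate and reticulate scales of the chicken foot were also read at alligator morphogenesis. Of 61 scutate-high genes 7 were called higher (11.5%) and 8 lower (13.1%), and of 68 reticulate-high genes 10 were called higher (14.7%) and 7 lower (10.3%), and without flank morphogenesis replicate 2 these became 0 and 3, and 1 and 3. Of the genes that part the femoral and dorsal feather tracts of chicken, 2 were tested in alligator, too few to describe as a group.

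**Figure D4:**
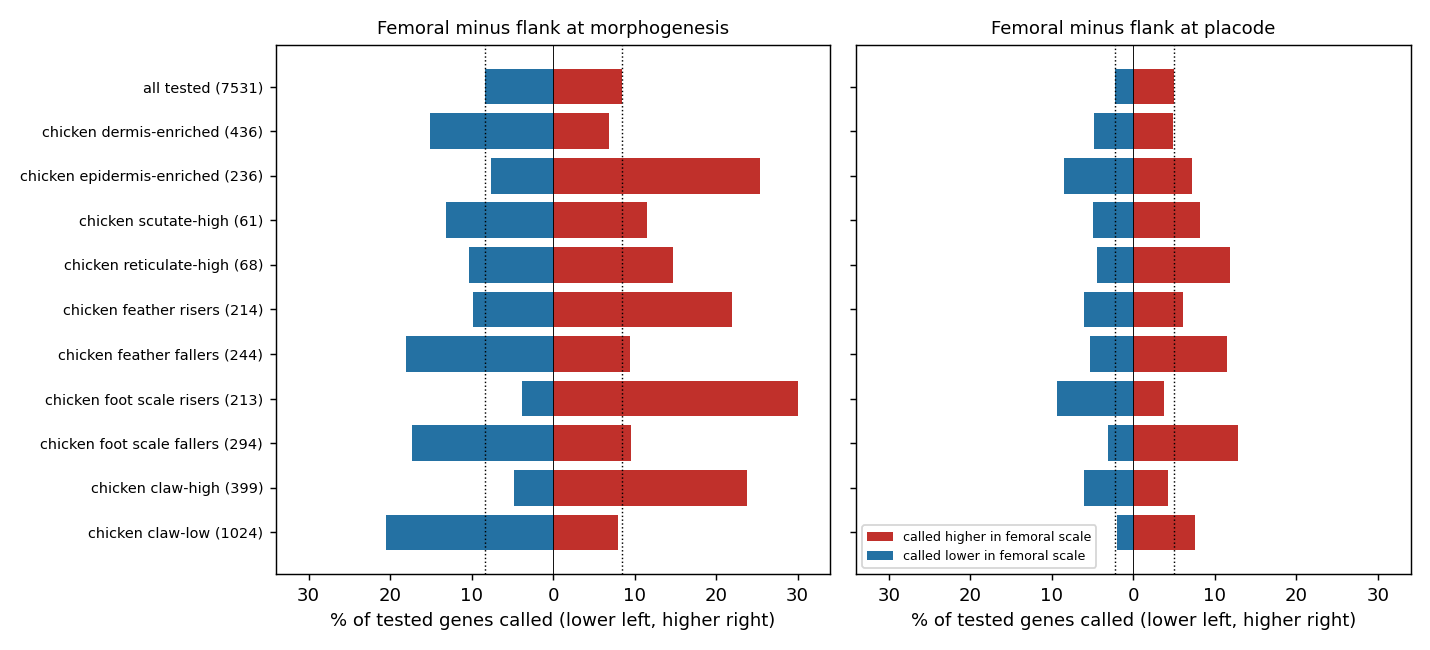
Share of the genes of each chicken-defined group that were called higher (red, right) or lower (blue, left) in femoral than in flank scale, at morphogenesis in the left panel and at placode in the right panel. Group sizes are in brackets, and dotted lines mark the shares over all 7531 genes. Foot scale risers reach 30% higher at morphogenesis, against 8.45% over all genes.

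The 706 genes arising at morphogenesis were then read in libraries that had no part in the calls at the stages given above. Between morphogenesis and placode in alligator foot claw, the mean difference was above 0 for 240 of 343 genes arising higher in femoral scale (70%) and for 25 of 360 arising lower (6.94%), against 30.2% of all genes, leaving out genes with equal means. In chicken scutate epidermis the stage difference was above 0 for 63.9% of the genes arising higher and 21.2% of those arising lower, against 39% of all. In emu scutate epidermis the shares were 72.8% of 224 genes and 54.3% of 234, against 57% of 4899. Fewer genes carry an emu value, so the emu and chicken shares rest on unlike sets of genes. In chicken feather epidermis the shares were 60.1% and 57.9%, against 56%. The stage readings of claw and chicken scutate scale thus parted the arising genes by direction more widely than those of chicken feather, a description with no test of the difference.

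Readings between scale types and between tracts went otherwise. At morphogenesis the scutate minus reticulate difference was above 0 in chicken for 48.2% of the genes arising higher in alligator femoral scale and 68.9% of those arising lower, against 57.3% of all genes. In emu the shares were 41.1% of 224 genes and 80.3% of 234, against 61.1% of 4896. Fewer genes carry a value in emu than in chicken, here and in the tract readings. The femoral minus dorsal feather difference was averaged over placode and morphogenesis. It was above 0 for 42.8% and 53.7% in chicken, against 52.3%. In emu, where the labels name the tract flank/femoral, the shares were 37.1% and 55.6%, against 43.4%. In these readings the genes arising higher in alligator femoral scale lay below the share over all genes in every case. Those arising lower lay above it. For the chicken feather tracts, however, the share of the lower genes was near that over all genes, with a median difference of 0.01 in both. The tract medians were small throughout. The median was −0.02 for the higher genes in chicken. In emu it was −0.05 for the higher and 0.02 for the lower genes, against −0.02 over all genes.

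ENSGALG00000003843, which had opposite calls at the stages and so is not among the 706, was read in the same libraries. Its scutate minus reticulate difference in chicken was 3.22 on the log2(TPM + 1) scale. In chicken it averaged 2020 ± 1830 TPM at morphogenesis and 2.74 ± 3.75 TPM at placode in scutate epidermis (SD, n = 2 each). In chicken claw it averaged 13100 ± 346 TPM at morphogenesis and 3700 ± 4440 TPM at placode (SD, n = 2 each), and in chicken dorsal feather 21.2 ± 12.8 TPM and 0.653 ± 0.0109 TPM (SD, n = 2 each). In alligator claw it had 3430 and 3720 TPM at morphogenesis and 12.8 and 5.12 TPM at placode, above both femoral libraries of the same stage name at morphogenesis, and with overlapping levels at placode. ENSGALG00000013587, by contrast, had 8.36 and 5.77 TPM in alligator claw at morphogenesis and 60.2 and 160 TPM at placode, below every scale library of the same stage name, although the claw at morphogenesis was labelled an earlier stage than either scale.

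**Figure D5:**
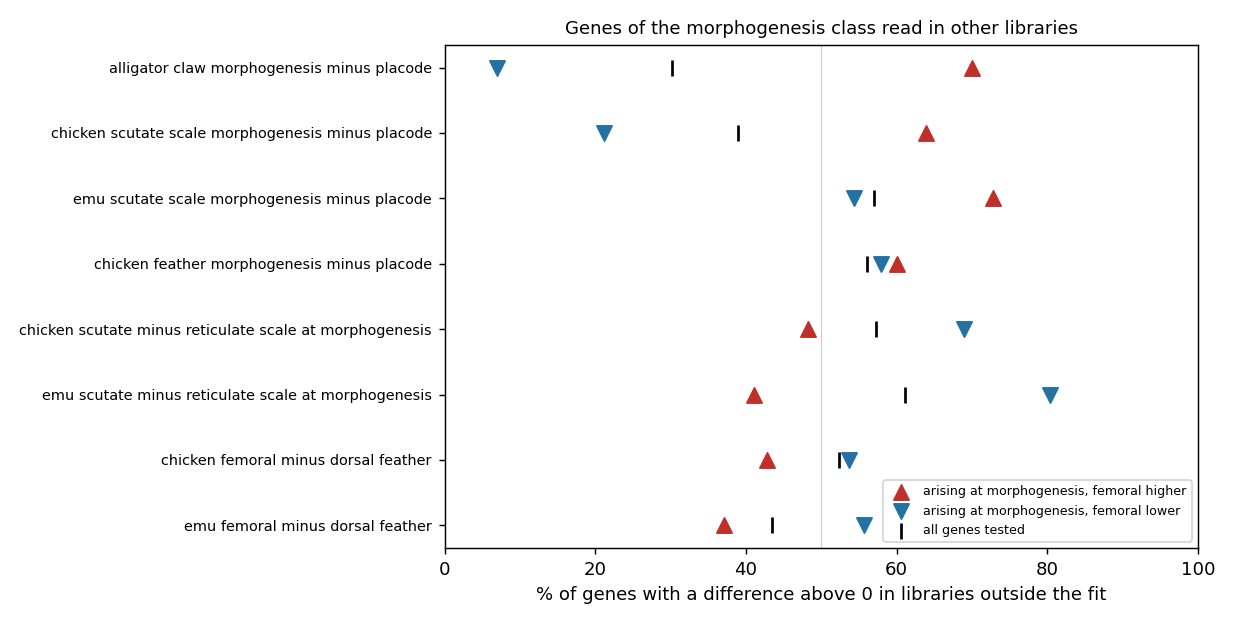
Share of genes whose difference is above 0 in libraries outside the fit, for genes arising at morphogenesis higher in femoral scale (red triangles up), lower in femoral scale (blue triangles down) and all genes tested (black bars). The red and blue marks stand at 70% and 6.94% for the claw stage difference and at 60.1% and 57.9% for the chicken feather stage difference. The emu femoral tract is named flank/femoral in the labels, and the tract differences are averaged over both stages.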

How the data were processed

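Gene expression was measured by RNA-seq of polyadenylated RNA in embryonic epidermis. The submitters' processing notes list CASAVA, TopHat2 2.0.6 and HTSeq 0.5.3p9 without saying what each did. Build and annotation were not given in the sources used here, and chicken identifiers serve every species. The authors deposited TPM values for 17889 genes in 60 libraries. Alligator columns held a value for 9295 genes and summed to between 619794 and 619856, so they had been rescaled by the authors in a way that is not stated. Because TPM is relative, abundant genes that differ alter the values of the rest.

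The 8 libraries entered a fit of log2(TPM + 1) in limma 3.58.1 (R 4.3.3), which had a mean for every group, moderated the variances with a trend and robustly, and called genes at a Benjamini-Hochberg adjusted p under 0.05 across the 7531 genes with 1 TPM or more in at least 2 libraries. The code was tested on simulated data. Differences on this scale understate the change of low genes. Identical values were held by 0 pairs of libraries. The rule named up to 10 genes each way that carry a symbol or, where none can be matched, the 2 identifiers with the largest called difference each way per comparison. Since 0 identifiers matched a symbol, lists of pathway genes and cell type markers were not applied. Members, lists and groups were chosen with earlier results of these data known. Alternatives were other pseudocounts, filters and scalings, a fit with the claw libraries, a fit without trend or robust moderation, and leaving out each library in turn.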

Additional observations from a re-analysis of the deposited data

Results flagged for a closer look

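The site difference was itself different between the stages, by the site-by-stage term, for 1374 genes. Among the named identifiers the term was 6.56 for ENSGALG00000003843, 5.3 for ENSGALG00000012420, 4.4 for ENSGALG00000015937 (SE 0.36, limma adjusted p = 0.0018), 3.11 for ENSGALG00000003323 (SE 0.56, limma adjusted p = 0.011) and 2.73 for ENSGALG00000015764 (SE 0.36, limma adjusted p = 0.0037). It was −5.12 for ENSGALG00000013587, −4.15 for ENSGALG00000013663, −2.5 for ENSGALG00000007219 (SE 0.21, limma adjusted p = 0.00097) and −2.35 for ENSGALG00000005499 (SE 0.34, limma adjusted p = 0.0039). All are on the log2(TPM + 1) scale. The femoral libraries span more labelled Ferguson stages than the flank libraries, and the 2 cannot be told apart.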

How the results depend on the processing

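No paired analysis was possible because the labels give each of the 8 libraries its own specimen number and no number is shared between the sites. Pseudocounts of 0.1 and 5, no filter, a filter of 5 TPM, both rescalings and removal of the genes higher in chicken dermis kept every total count of called genes and every class size within 1.5 times its value. The counts by direction moved further under rescaling, as given with the comparisons. A fit with the 4 claw libraries called 805 genes at morphogenesis, 274 at placode, 266 on average and 843 for the site-by-stage term, and its classes held 425 genes arising at morphogenesis, 137 smaller or gone, 32 opposite and 23 present at both stages. Without trend or robust moderation 387 genes were called on average and 62 were opposite. Per labelled Ferguson stage 0 genes were called, and with both sites read at one labelled stage 1033 were, both alternatives added after seeing the data. The cause of these shifts was not tested. Leaving out 1 library gave 283 to 1687 genes at morphogenesis, 28 to 771 at placode, 99 to 919 on average and 380 to 1522 for the term. The classes held 155 to 871 genes arising at morphogenesis, 20 to 342 smaller or gone, 2 to 184 opposite and 4 to 82 present at both stages. A group left with 1 library was assumed to vary like the others. Over the named identifiers 303 of 318 values kept their side of the threshold, 15 fell short of it and 0 reversed. Counts in chicken-defined groups stayed within 1.5 times in 773 of 1020 cases. Lists by symbol were not run. Read depth is unknown in TPM.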
